A study of Mus musculus with 39 samples.

Results

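The cytosolic ribosomal protein genes of the mouse were followed in oocytes and preimplantation embryos, and in embryos that had been exposed to an inhibitor of histone deacetylases (HDACi) soon after fertilization. Members were taken by name alone, as every probe on the array whose gene symbol is Rpl or Rps followed by a number and an optional suffix, without the S6 kinase genes (Rps6k) and without hyphenated names. This gave 80 genes, 49 of the large (60S) and 31 of the small (40S) ribosomal subunit, carried by 180 of the 55681 probes. Of these genes, 79 entered the test, among 14825 genes tested in all. The remaining one, Rpl3l, the striated muscle paralog of Rpl3, was positive and significant on 25 of the 39 arrays and in 10 of the 13 conditions, where the filter required at least 1 array in each, so it has no fold changes here. Before normalization its signal was 119, 400 and 330 in untreated 2-cell embryos, 70.3, 74.0 and 82.2 after T247 and 34.2, 41.3 and 47.4 after MGCD0103, and 3.81 to 4.65 in GV oocytes.

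Ribosomal proteins assemble with ribosomal RNA in the nucleolus into the subunits that read mRNA and join amino acids, and they are made in near equal amounts from genes spread over the genome. Many of their mRNAs begin at a cytosine within a run of pyrimidines, the terminal oligopyrimidine (TOP) tract, through which their translation follows nutrient and growth signals. A growing mouse oocyte stores ribosomes and mRNA, part of the stored mRNA is deadenylated and destroyed when meiosis resumes, and new transcription from the embryo's own genome becomes strong at the 2-cell stage.

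The RNA came from oocytes and embryos with the strain label B6D2F1 x ICR, with eggs from adult females and embryos from in vitro fertilization, and each array held the RNA of 100 oocytes or embryos. There were 13 conditions with 3 arrays each. The untreated ones were germinal vesicle (GV) oocytes, metaphase II (MII) oocytes, and 1-cell, 2-cell, 4-cell, 8-cell, morula and blastocyst embryos. The treated ones were 1-cell, 2-cell and 4-cell embryos after T247, an inhibitor selective for HDAC3, and 1-cell and 2-cell embryos after MGCD0103, an inhibitor of class I HDACs. Both inhibitors were given at 10 µM for 6 h from 4 h post-insemination, and the embryos were then cultured without inhibitor and collected at 12, 24 or 48 h post-insemination for the 1-, 2- and 4-cell stages. All embryo groups share the fertilization in vitro, and the samples used here hold no 4-cell group after MGCD0103. The study reports that embryos given MGCD0103 did not reach that stage, and proposes that T247 may delay development.

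Replicate arrays correlated at 0.988 or more within every condition except the untreated 2-cell embryos, where replicate 1 stood apart (0.934 at the lowest). Probe signals were positive and significant for 62.4% to 77.3% of probes per array. The summed signal of oocyte markers was highest in GV oocytes, that of 2-cell markers in untreated 2-cell embryos and that of blastocyst markers in blastocysts, though 1 of the last, Tfap2c, had its brightest array among the morulae. Of 5 cumulus cell markers, 1 or 2 were well above background on any array. Foxl2 was so on every array, with a signal of 16002 to 16902 in GV oocytes and 17700 to 26565 in blastocysts. Untreated stages lay on slides 1 to 3, with replicate n of each stage on slide n, T247 on slides 4 and 5 and MGCD0103 on slide 6, so slide and treatment cannot be told apart. The labelling primes on poly(A) tails, so that loss of a transcript and loss of its tail cannot be told apart either, and in whole embryos fewer cells of a type and less RNA per cell cannot be told apart. Values are signals on the log2 scale after normalization, and not absolute amounts of RNA. The normalization largely keeps each condition's own distribution, so a shift shared by all genes between conditions stays in the values. A log2 fold change (LFC) is a difference between condition means and includes such a shift. The change of the median gene is therefore given beside that of the median member. A gene is called changed where its LFC is at least 1 in size with a Benjamini-Hochberg adjusted p below 0.05 in limma. Errors of an LFC are limma standard errors with n = 3 arrays per condition, from a spread per gene shared by all 13 conditions. These errors and the p-values do not reflect the wider spread of the untreated 2-cell arrays. Their median member had an SD of 0.371, against 0.0659 after T247 and 0.0744 after MGCD0103 at that stage.

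The start of the transcript is shown for 6 members that the results turn on: Rps18, Rps27 and Rpl12, which move strongly with stage, and Rpl14, Rps15a and Rps27l, which do not fall in treated 2-cell embryos. Each line gives 40 bases before and 20 from the annotated start (RefSeq, GRCm38.p6), in the direction of transcription. Capitals mark a TOP-like tract, a C at most 5 bases from the start and at least 4 further C or T.
Rps18, chr17:33955646-33955705, minus strand: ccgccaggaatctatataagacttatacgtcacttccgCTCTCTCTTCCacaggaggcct
Rps27, chr3:90213629-90213688, minus strand: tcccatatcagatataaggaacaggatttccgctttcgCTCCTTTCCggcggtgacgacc
Rpl12, chr2:32961672-32961731, plus strand: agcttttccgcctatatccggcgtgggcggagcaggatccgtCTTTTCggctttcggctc
Rpl14, chr9:120571477-120571536, plus strand: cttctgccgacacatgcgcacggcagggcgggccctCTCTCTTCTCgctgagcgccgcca
Rps15a, chr7:118116128-118116187, minus strand: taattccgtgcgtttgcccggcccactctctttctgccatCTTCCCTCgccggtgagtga
Rps27l, chr9:66946046-66946105, plus strand: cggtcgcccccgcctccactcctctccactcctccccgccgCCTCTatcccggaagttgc

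A TOP-like tract lies at the printed start of all 6, at differing lengths and offsets. Rps27l has another annotated start, further downstream, without one. A promoter window of 250 bases before and 50 after a start was found for 61 of the 80 members, in 73 windows. A TOP-like tract was in 41.1% of them, against 18.3% of all 32851 windows of the genome table. The letters AAGATGGC, as bound by YY1, were in 10.96% against 2.75%. The letters CCGGAAG, as in ETS sites, were in 34.2% against 8.86%, and GGGCGG, as in SP1 sites, in 58.9% against 35.7%. The last 3 motifs were searched on both strands. The YY1 and ETS letters can share bases, as can the ETS and SP1 letters, so their matches can lie in the same stretch. These matches are descriptions and not binding sites.

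In untreated material the members moved together over a wide range. The median member stood at a log2 signal of 15.38 in GV oocytes, 11.20 in MII oocytes, 11.63 in 1-cell, 13.26 in 2-cell, 16.19 in 4-cell and 16.70 in 8-cell embryos, 17.07 in morulae and 17.06 in blastocysts. Their summed signal made up 3.61% ± 0.0180 (SD, n = 3) of the signal of all tested genes in GV oocytes and 0.718% ± 0.00982 in MII oocytes. It then stood at 2.46% ± 0.622 in 2-cell embryos and 11.8% ± 0.234 in 4-cell embryos. No array of GV, MII, 1-cell, 2-cell or 4-cell overlapped with one of another of these stages in the median member. The MII oocyte held the lowest mean of 58 members, the 1-cell embryo that of 14 and the 2-cell embryo that of 7. The highest mean lay in the morula for 49, in the blastocyst for 29 and in the GV oocyte for 1, Rpl35, a protein at the rim of the exit tunnel. Set against the other genes, the highest point came earlier. The share of the summed signal was 13.5% in 8-cell embryos, 12.4% in morulae and 11.7% in blastocysts. The median member lay 8.55, 8.12 and 7.67 above the median gene in these stages.

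**Figure D1:**
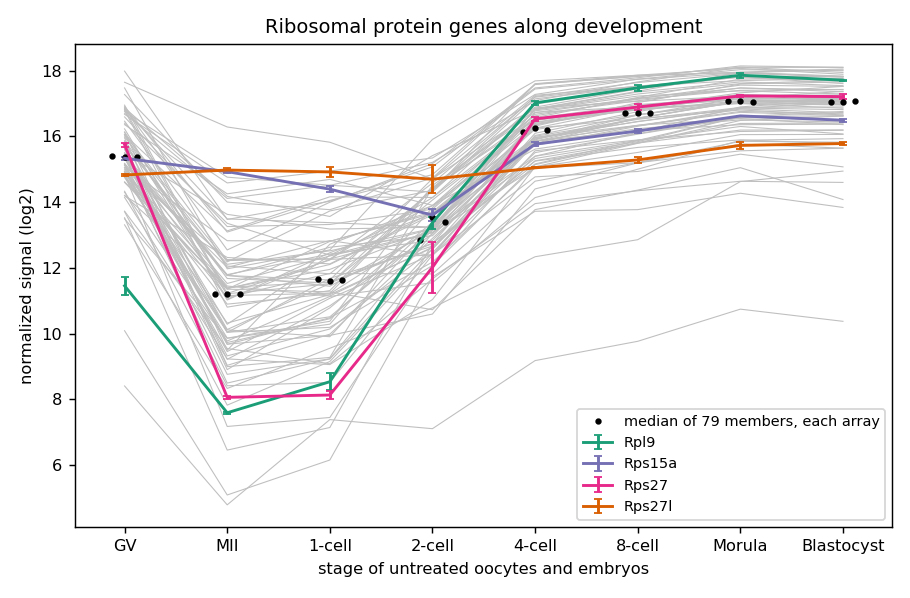
Log2 signal of the 79 tested ribosomal protein genes (grey lines, condition means) along the untreated stages from GV oocyte to blastocyst, with Rpl9, Rps15a, Rps27 and Rps27l coloured (bars are the SD of 3 arrays) and the median member of each array as black dots. The median dots drop from about 15.38 in GV to 11.20 in MII oocytes and stand at 16.19 in 4-cell embryos, while the stage means of Rps27l span 1.09.

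**Figure D2:**
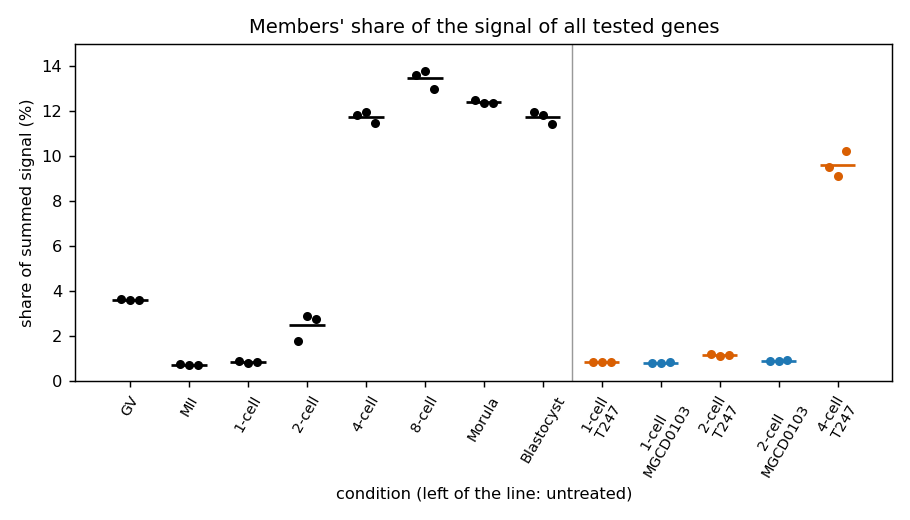
Share, in percent, of the summed signal of all tested genes that the ribosomal protein genes held on each of the 39 arrays, by condition. The share was 0.718% on average in MII oocytes and 11.8% in untreated 4-cell embryos, and 2-cell embryos after T247 or MGCD0103 (1.14% and 0.893%) lie below the untreated ones (2.46%).

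Between the GV and the MII oocyte, 77 of the 79 members fell and none rose, where 48.8% of all tested genes were called lower. Rps27, a zinc finger protein of the small subunit, gave 15.82, 15.71 and 15.72 in the 3 GV arrays and 8.05, 8.11 and 8.03 in the MII arrays. The values do not overlap, and Rps27 fell 206-fold (LFC −7.68 ± 0.20, adjusted p = 1.84e-24, limma). Rps19, the gene most often mutated in Diamond-Blackfan anaemia, gave 13.50, 13.56 and 13.51 against 6.40, 6.38 and 6.59, an LFC of −7.07 ± 0.17. Both small subunit genes lost over 7 log2 units.

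The median member changed by −4.20 and the median of all genes by −0.97, so that the median member lay 3.23 lower relative to the genes tested. That all-gene shift depends on the scaling, and is 0.30 under quantile normalization and 0.32 under scaling to the 75th percentile, where the median member still changed by −3.10 and −2.83. The 60S median was −4.52 and the 40S median −4.00. Within slides 1, 2 and 3 the median member changed by −4.13, −4.24 and −4.18.

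Both members that were not called are small subunit genes. Rps27l, the p53-inducible paralog of Rps27, gave 14.85, 14.84 and 14.79 in GV and 15.04, 14.93 and 14.95 in MII oocytes (LFC 0.15 ± 0.12, adjusted p = 0.297, limma). Rps15a, a core protein of the small subunit, gave 15.29, 15.33 and 15.38 against 14.96, 14.89 and 14.93 (LFC −0.41 ± 0.090, adjusted p = 0.000211, limma), a loss that is separated between the arrays but below the fold required. Over all untreated stages the means of Rps27l spanned 1.09 log2 units, the narrowest range of the members, against a median of 6.00 and a widest range of 10.27 for Rpl9, a protein near the site where translation factors bind. Rpl9 gave 11.41, 11.75 and 11.21 in GV, 7.62, 7.60 and 7.55 in MII, and 17.78, 17.94 and 17.86 in the morula.

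**Figure D3:**
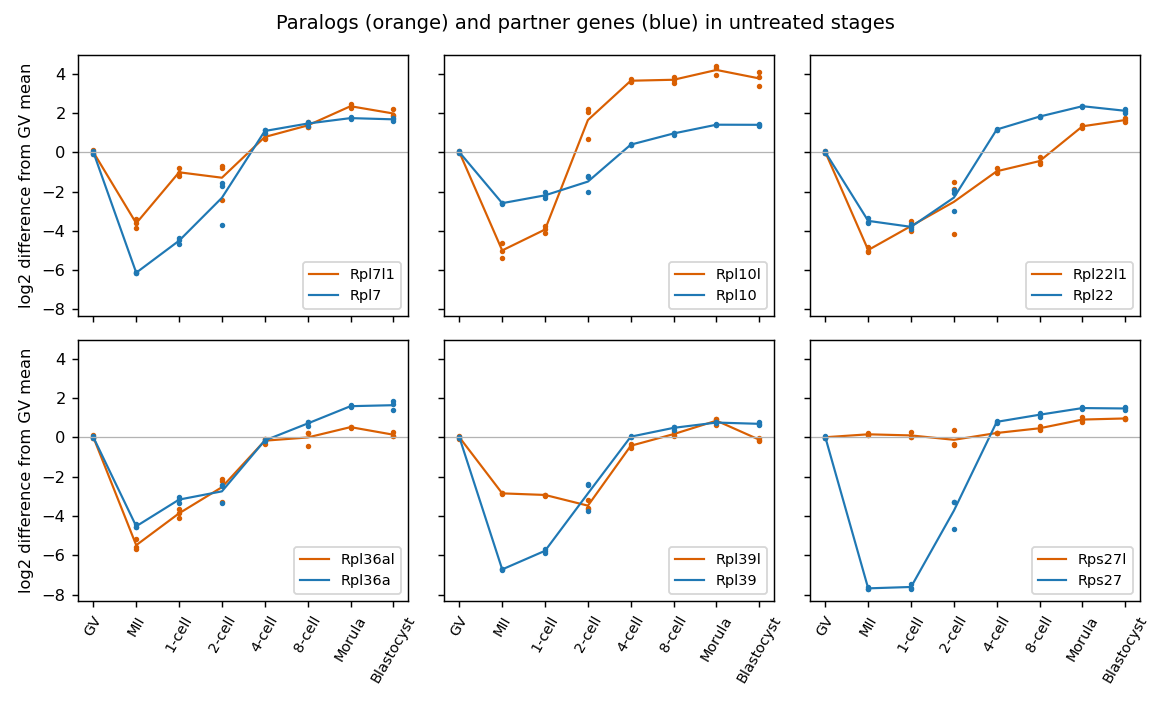
Log2 signal of 6 pairs of paralog (orange) and partner (blue) along the untreated stages, drawn as the difference from the gene's own GV mean (points are arrays, lines condition means). Rps27 lies at −7.68 in MII oocytes where Rps27l lies at 0.15, and the other paralogs drop from GV to MII as their partners do.

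From the MII oocyte to the 1-cell embryo, 19 members rose and none fell, where 17.2% of all genes were called higher. Rpl24, which forms a bridge between the subunits, gave 9.58, 9.52 and 9.39 in MII and 12.99, 12.52 and 12.65 in 1-cell embryos (LFC 3.22 ± 0.12). Rpl7l1, a paralog of Rpl7, and Rps9, at the mRNA entry channel, rose by an LFC of 2.59 ± 0.24 and 2.10 ± 0.11. The median member changed by 0.47 and the median gene by 0.13. By subunit, 14 of the 19 were large and 5 small subunit genes, where 49 and 31 of the members by name belong to these subunits.

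Between the 1-cell and the 2-cell embryo, 49 members rose and 1 fell, while 18.3% of all genes were called higher and 33.9% lower. The median member changed by 1.42 and the median gene by −0.49. Rps19 gave 7.17, 7.18 and 7.09 in 1-cell and 11.96, 13.22 and 13.06 in 2-cell embryos, a 48.6-fold rise (LFC 5.60 ± 0.17). The X-linked Rpl10's autosomal retrocopy Rpl10l, best known from the testis, gave 6.19, 5.95 and 6.32 against 10.74, 12.28 and 12.16 (LFC 5.57 ± 0.24). Rps27a, which is made as a fusion to ubiquitin, gave 9.31, 9.38 and 9.14 against 13.62, 14.90 and 14.78 (LFC 5.16 ± 0.18). Replicate 1 of the 2-cell embryos was the lowest in each of these genes and the 1-cell arrays lay far below it.

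The member that fell was Rpl37, a small zinc-binding protein of the large subunit, at 15.73, 15.95 and 15.78 in 1-cell and 14.25, 14.97 and 14.90 in 2-cell embryos (LFC −1.11 ± 0.12). The median step within slides was 0.70 on slide 1, which carries the 2-cell array that stood apart, and 1.91 and 1.65 on slides 2 and 3. Without that array 57 members were called and without replicate 2 of the 2-cell embryos 46.

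From the 2-cell to the 4-cell embryo 78 of the 79 members rose, where 25.8% of all genes were called higher. The median member changed by 2.72 and the median gene by −0.20. Rps27 gave 11.10, 12.47 and 12.47 in 2-cell and 16.59, 16.54 and 16.47 in 4-cell embryos (LFC 4.52 ± 0.20, 22.9-fold). Rps18, a head protein widely used as a reference gene, gave 10.45, 11.49 and 11.17 against 15.04, 15.10 and 15.08 (LFC 4.04 ± 0.14), and Rpl5, which carries 5S ribosomal RNA, gave 9.69, 11.16 and 10.94 against 14.20, 14.43 and 14.58 (LFC 3.81 ± 0.20). Rps27l alone was not called, at 15.19, 14.43 and 14.47 against 15.06, 15.03 and 15.03 (LFC 0.35 ± 0.12).

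After the 4-cell stage the median member moved by less than 1 in each step. The LFCs of all 79 members were above 0 from the 4-cell to the 8-cell embryo, and again from there to the morula. No member was called from the 4-cell to the 8-cell embryo, where 14.6% of all genes were called in either direction, although 62 members had an unadjusted p under 0.05 in limma. At any size of LFC 55 members were higher with an adjusted p below 0.05, against 25.4% of all genes. The median member changed by 0.47 and the median gene by 0.12. From the 8-cell embryo to the morula 1 member rose, Rpl22l1, a paralog of Rpl22, where 31.7% of all genes were called higher. It gave 12.71, 13.04 and 12.82 against 14.70, 14.53 and 14.65 (LFC 1.77 ± 0.33). At any size 49 members were higher, against 53.5% of all genes. The median member changed by 0.39 and the median gene by 0.56, which become −0.28 and −0.09 under scaling to the 75th percentile. From the morula to the blastocyst no member was called, where 27.2% of all genes were called in either direction, and 3 members had an unadjusted p under 0.05 in limma. The median member changed by −0.04 and the median gene by 0.20 in that step. Blastocysts held more signal than GV oocytes for 77 members, with a median difference of 1.39.

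The study exposed zygotes to the HDACi to ask which genes respond at the stages that follow. In 1-cell embryos few members were called. After T247, 2 members rose and none fell, where 5.5% of all genes were called higher. After MGCD0103, 1 member rose and none fell, where 3.53% were. Rpl7a, a large subunit protein, gave 12.21, 11.80 and 12.30 in untreated, 13.34, 13.33 and 13.37 in T247-treated and 13.06, 13.12 and 13.15 in MGCD0103-treated 1-cell embryos. It rose with T247 (LFC 1.24 ± 0.13) and with MGCD0103 (LFC 1.01 ± 0.13), both comparisons sharing the untreated arrays. Rps21, a small subunit protein, gave 8.72, 9.18 and 9.36 untreated and 10.09, 10.11 and 10.27 with T247 (LFC 1.07 ± 0.23).

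The call for Rpl7a with MGCD0103 was lost in 2 of the 6 fits that leave out an array (untreated replicate 2 or MGCD0103 replicate 3) and when quantile normalization, 75th percentile scaling, normexp correction or the mean of the probes was used. One other of the 4 Rpl7a probes gave 0.20 with T247 and 0.09 with MGCD0103. The median member changed by 0.12 with T247 and 0.19 with MGCD0103, against 0.00 and 0.11 for all genes. Directly compared, no member differed between the inhibitors past the fold required at this stage (limma), where 0.263% of all genes were called in either direction, and 5 had an unadjusted p under 0.05. At any size of LFC, Rpl9 was lower with MGCD0103 than with T247 (LFC −0.76 ± 0.12, adjusted p = 0.00138, limma) and Rps28 higher (LFC 0.33 ± 0.078, adjusted p = 0.0398, limma).

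In 2-cell embryos the members were lower after either inhibitor. With T247, 54 of the 79 fell and none rose, 68.4% of the members, where 17.1% of all genes were called lower and 8.3% higher. With MGCD0103, 60 fell and none rose, 75.9%, where 16.2% were called lower and 11.7% higher. The median member changed by −1.28 with T247 and by −1.52 with MGCD0103, against −0.28 and 0.04 for all genes. Their share of the summed signal was 2.46% ± 0.622 in untreated, 1.14% ± 0.0433 in T247-treated and 0.893% ± 0.0367 in MGCD0103-treated embryos.

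Rps27 gave 11.10, 12.47 and 12.47 in the untreated, 9.08, 9.02 and 9.07 in the T247-treated and 8.35, 8.70 and 8.60 in the MGCD0103-treated 2-cell embryos. No treated array reached an untreated one. Rps27 fell 7.78-fold with T247 (LFC −2.96 ± 0.20, adjusted p = 7.51e-13, limma) and 11.03-fold with MGCD0103 (LFC −3.46 ± 0.20, adjusted p = 1.76e-14, limma), the largest fall of the members with each inhibitor. All 4 probes named Rps27 map to a copy on another chromosome than the gene in the array's annotation (the one used to mm9 chr9:114891509-114891568, the gene on chromosome 3), and changed by −2.94 to −3.31 with T247, so transcripts of the gene and of a near-identical copy cannot be separated.

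Rps15, whose tail reaches the decoding center (mm9 chr10:79756716-79756775), gave 11.75, 13.02 and 12.94 untreated, 10.14, 9.98 and 10.00 with T247 and 9.48, 9.60 and 9.65 with MGCD0103. It fell with both (LFC −2.53 ± 0.17 and −2.996 ± 0.17), in groups that do not overlap. Rps29, a small zinc-binding protein of the small subunit's head, gave 13.13, 14.69 and 14.59 untreated, 11.68, 11.52 and 11.50 with T247 and 11.27, 11.22 and 11.32 with MGCD0103 (LFC −2.57 ± 0.21 and −2.87 ± 0.21). Its probe lies at mm9 chr2:172335021-172335079, also away from the gene on chromosome 12. Rpl10l (mm9 chr12:67384403-67384462) gave 10.74, 12.28 and 12.16 untreated, 9.79, 9.59 and 9.53 with T247 and 8.52, 8.41 and 8.73 with MGCD0103 (LFC −2.09 ± 0.24 and −3.17 ± 0.24).

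**Figure D4:**
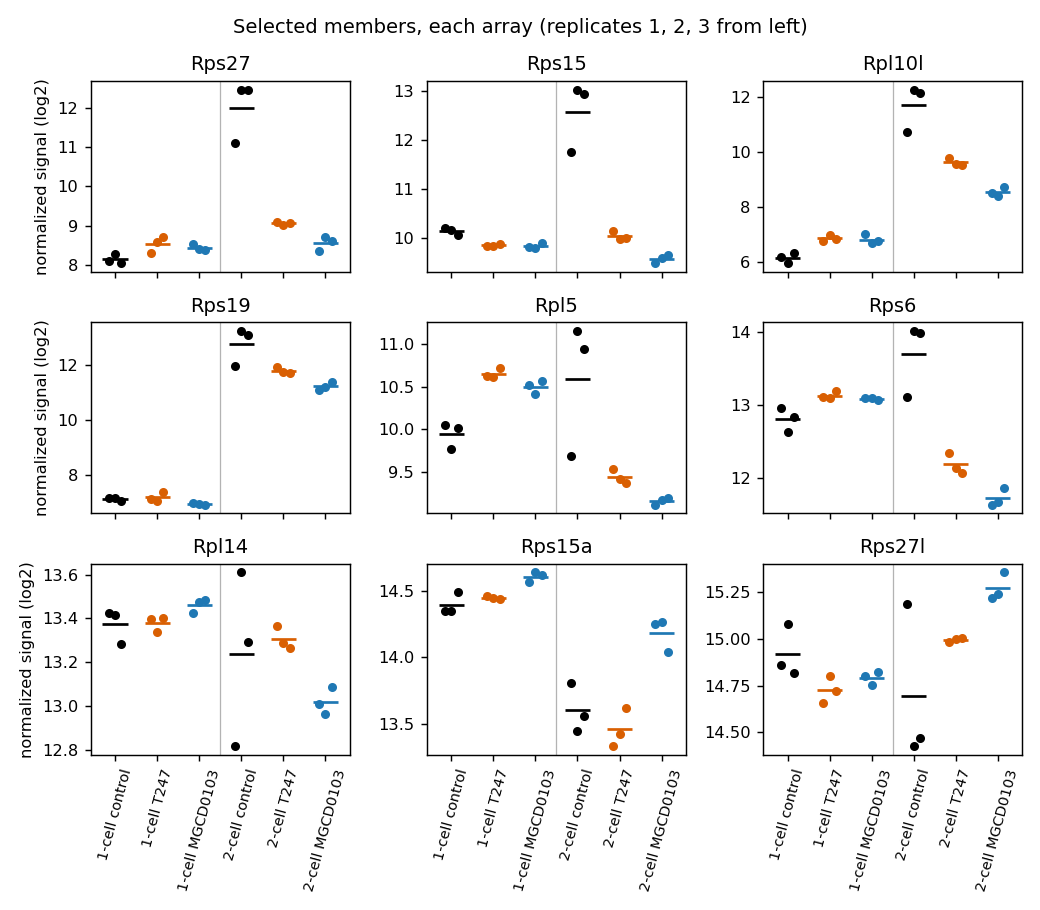
Log2 signal of 9 ribosomal protein genes on each array of the untreated and treated 1-cell and 2-cell embryos, with bars at the means and a scale of its own for each gene. In 2-cell embryos the Rps27 arrays stand between 11.10 and 12.47 untreated, 9.02 and 9.08 with T247 and 8.35 and 8.70 with MGCD0103, whereas the Rps27l arrays of treated embryos (14.98 to 15.36) lie within or just above the range of the untreated ones (14.43 to 15.19).

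By role, the change was spread across both subunits. The 60S median was −1.20 with T247 and −1.43 with MGCD0103, and the 40S median −1.44 and −1.79. Of the proteins at the rim of the peptide exit tunnel, the 4 listed for that role fell with both inhibitors. Their LFCs with T247 and MGCD0103 were −1.42 and −1.62 for Rpl19, −1.06 and −1.33 for Rpl23a, −1.04 and −1.33 for Rpl26 and −1.41 and −1.86 for Rpl35, and the pairs of values below keep that order. Rpl39, inside the tunnel, fell with both (−1.69 and −2.18), while Rpl4 gave −0.66 and −0.92 and was not called. Rpl31, another rim protein, was not called either (−0.53 and −0.74). Rpl17, which also lines the tunnel, fell with T247 (−1.33) and gave −0.94 with MGCD0103.

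Rpl5 and Rpl11, which bind 5S RNA and can hold back the p53 ligase Mdm2, both fell (−1.16 and −1.44 for Rpl5, −1.18 and −1.10 for Rpl11). Rpl23, which also binds Mdm2, gave 13.96, 14.76 and 14.80 untreated, 12.94, 12.67 and 12.69 with T247 and 12.01, 12.00 and 12.30 with MGCD0103 (LFC −1.74 ± 0.14 and −2.41 ± 0.14). Its groups do not overlap. Rpl12, at the base of the stalk where elongation factors dock, fell with MGCD0103 (−1.16) and gave −0.86 with T247.

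In the small subunit, Rps23 of the decoding center fell with both (−1.57 and −1.89), as did Rps6, the substrate of S6 kinase (−1.52 and −1.98), and Rps27a (−1.87 and −2.05). Among proteins at the mRNA entry, Rps9 fell with both (−1.53 and −1.90), Rps3 fell with MGCD0103 (−1.19) and gave −0.87 with T247, and Rps2 was not called (−0.87 and −0.93). At the mRNA exit, Rps26 fell with both (−2.33 and −2.72), Rps14 fell with T247 (−1.09) and gave −0.93 with MGCD0103, and Rps28 was not called (−0.43 and −0.13). Of 3 genes mutated in Diamond-Blackfan anaemia, Rps24 (−1.28 and −1.48) and Rpl35a (−1.82 and −2.09) fell with both, and Rps19 fell with MGCD0103 (−1.52) and gave −0.97 with T247. Of the common reference genes, Rps18 fell with both (−1.61 and −2.10) and Rpl13a was not called (−0.47 and −0.64).

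Of the 6 tested paralogs, 5 fell with T247 and 4 with MGCD0103, and all 8 partners fell with both. Rpl7l1 (−2.20 and −2.75) fell beside Rpl7 (−2.23 and −2.52), Rpl22l1 (−1.73 and −1.84) beside Rpl22 (−1.53 and −1.67), and Rpl36al (−1.21 and −1.97) beside Rpl36a (−1.28 and −1.29). Rpl10 fell with both as well (−1.51 and −1.47), beside Rpl10l above. Rpl39l fell with T247 (−1.39) and gave −0.81 with MGCD0103, while its partner Rpl39 fell with both. Rpl3 (−1.05 and −1.20) and Rps4x (−1.22 and −1.59), whose paralogs have no fold changes here, fell with both.

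Rps27l, the partner gene's p53-inducible paralog, did not fall with Rps27. It gave 15.19, 14.43 and 14.47 untreated, 14.98, 14.999 and 15.01 with T247 and 15.22, 15.24 and 15.36 with MGCD0103 (LFC 0.30 ± 0.12 and 0.58 ± 0.12), and was called in none of the stage steps or HDACi comparisons. Its untreated arrays overlap with the T247 arrays and lie below all MGCD0103 arrays.

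Of the 79 members, 49 were called lower with both inhibitors, 5 with T247 alone, 11 with MGCD0103 alone and 14 with neither. The comparisons share the untreated arrays, and being called with one inhibitor alone does not show a difference between them. Among the 14 are Rpl4, Rpl7a, Rpl13a, Rpl14, Rpl31, Rpl34, Rpl36, Rps2, Rps12, Rps15a, Rps16, Rps27l and Rps28. Rpl14, a large subunit protein, gave an LFC of 0.07 ± 0.11 with T247 and −0.22 ± 0.11 with MGCD0103. Rps15a gave 13.81, 13.45 and 13.56 untreated, 13.33, 13.42 and 13.62 with T247 and 14.25, 14.26 and 14.04 with MGCD0103 (LFC −0.15 ± 0.090 and 0.58 ± 0.090).

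Split by the TOP-like tract, 17 of 28 members with one in their promoter table entry and 22 of 32 without one fell with T247, with medians of −1.34 and −1.25. With MGCD0103 it was 20 of 28 and 27 of 32, with medians of −1.59 and −1.55. Where a gene had several probes, 31 of 56 genes had all probes called with T247 and 43 at least 1, and 34 and 47 with MGCD0103. With T247 the count of 54 became 35 under quantile normalization, 66 without the untreated 2-cell array that stood apart and 46 without replicate 2 of that group. The 17.1% of all genes called lower is from the main fit alone. Under quantile normalization the median member changed by −0.83 with T247 and the median gene by −0.03. Without each of these arrays in turn, the median member minus the median gene was −1.36 and −0.75. With MGCD0103 the leave-outs gave 56 to 66.

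Set directly against each other at the 2-cell stage, with the same dose and exposure, the inhibitors differed for 1 member past the fold required. Rpl10l was lower with MGCD0103 than with T247 (LFC −1.08 ± 0.24, adjusted p = 0.00107, limma), with arrays that do not overlap, where 2.81% of all genes were called lower. At any size of LFC, 31 members were lower with MGCD0103 and 5 higher, against 8.91% and 28.7% of all genes, and the median member lay 0.30 lower where the median gene lay 0.24 higher. Rps15a was the furthest the other way (LFC 0.72 ± 0.090). Under normexp correction no member and under quantile normalization 2 members were called.

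The change of each effect between stages was tested directly. The T247 effect was lower at the 2-cell than at the 1-cell stage for 63 members, where 15.9% of all genes were called lower, and the MGCD0103 effect for 68, where 16.7% were. For Rps27 these differences of effect were −3.36 ± 0.28 and −3.76 ± 0.28. Within a treatment, 2-cell embryos minus 1-cell embryos gave a median member change of 1.42 in the untreated group, with 68 of 79 means higher. The median gene of all tested gave −0.49 there. With T247 the median member changed by −0.08 and the median gene by −0.75, and with MGCD0103 they changed by −0.37 and −0.58, with 36 and 32 members higher. The members' share of the summed signal was 0.836% in 1-cell and 1.14% in 2-cell embryos after T247, and 0.808% and 0.893% after MGCD0103.

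In 4-cell embryos after T247, no member fell and 1 rose, Rps21, where 11% of all genes were called higher and 6.33% lower. Rps21 gave 13.76, 14.10 and 14.00 untreated and 15.15, 15.06 and 15.08 with T247 (LFC 1.14 ± 0.23). At any size of LFC, 38 members were lower with an adjusted p below 0.05, against 24.8% of all genes, and the median member changed by −0.32 against −0.03 for all genes. Rps18 had the largest such difference, 15.04, 15.10 and 15.08 untreated against 14.13, 14.10 and 14.18 with T247 (LFC −0.93 ± 0.14). Rps27 gave 16.59, 16.54 and 16.47 against 16.05, 15.85 and 16.30 (LFC −0.46 ± 0.20, adjusted p = 0.0568, limma). The T247 effect was higher at the 4-cell than at the 2-cell stage for 40 members, where 19.3% of all genes were called higher. The count of members became 20 under quantile normalization and 21 under 75th percentile scaling. Under these scalings the effect of the median member differed by 0.67 and 0.64, and that of the median gene by −0.0017 and −0.05. Between 2-cell and 4-cell embryos the median member changed by 3.86 with T247 and 2.72 without.

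**Figure D5:**
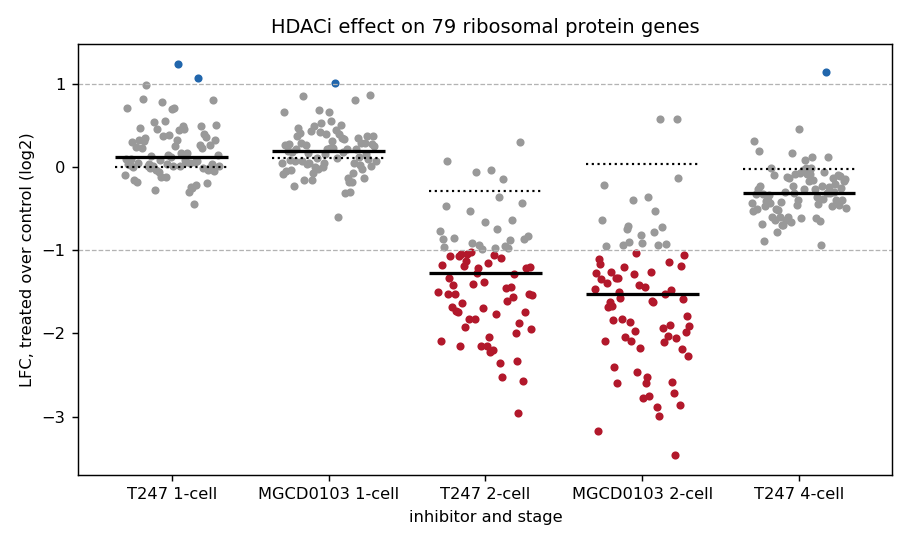
LFC of each tested ribosomal protein gene (points) in the comparisons of treated with untreated embryos, red where called lower and blue where called higher, with the member median as a black line, the all-gene median as a dotted line and the fold required as dashed lines at 1 and −1. The 2-cell comparisons hold 54 and 60 red points, the others none.

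Other genes of the translation apparatus were taken from fixed lists. Of 7 further cytosolic ribosomal proteins under other names, 3 fell with T247 and 4 with MGCD0103 at the 2-cell stage, among them the stalk protein Rplp1 (−1.58 and −2.01). Rplp0, the stalk's core, gave −0.53 and −0.64 and was not called. Of 11 other genes tied to translation, listed because their mRNAs are of the TOP class, 6 fell with T247 and 3 with MGCD0103. Of 78 mitochondrial ribosomal protein genes, 22 fell and 2 rose with T247 and 17 fell and 5 rose with MGCD0103, with medians of −0.57 and −0.06, beside the 17.1% and 16.2% of all genes called lower. In untreated embryos, between 1-cell and 2-cell embryos, 42 of these 78 fell and 9 rose, with a median of −1.25, beside 33.9% of all genes called lower and 18.3% higher. The cytosolic members had a median of 1.42.

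Of 56 members with several probes, 16 had probes of opposite sign between 1-cell and 2-cell embryos, and 25 of the 46 with any probe called had all of them called. With T247 and MGCD0103 it was 29 and 26 of opposite sign in 1-cell embryos, where changes were small, and 3 and 6 in 2-cell embryos. Rpl13a's probe used here gave −3.19 from GV to MII, while its other probes changed by 0.20 and 0.23, and Rpl22's probe used here changed by 1.48 between 1-cell and 2-cell embryos while its other probe changed by −3.45. In the MII comparison 2 had probes of opposite sign and 51 had all of them called. Between 2-cell and 4-cell embryos 4 had probes of opposite sign and 50 had all of them called. Rpl22's probe used here changed by 3.47 in that step and its other probe by −2.81. Probes of the same gene were called in both directions for 3 members in that step, 3 between 1-cell and 2-cell embryos and 1 with MGCD0103 in 2-cell embryos.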

How the data were processed

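RNA of 100 oocytes or embryos per array was labelled with 1 colour and hybridised to Agilent mouse arrays in 39 samples. The deposited scanner files, as the authors exported them, hold the background-corrected intensity of each spot (processed signal); the submitters' notes name Feature Extraction 9.5.1.1 and the file headers 10.7.1.1. The deposited series table holds log2 values of the authors and served as an alternative. Outlier spots and controls were left out, and probes had to be positive and significant on at least 1 array of every condition, the study's own filter. Intensities were log2 transformed and undetected values filled in (2.13% of all values, 0 of the members'). The brightest probe stood for a gene. Smooth quantile normalization followed, with a median weight of 0.0647 for the quantiles over all arrays and the rest for those of the array's own condition. Replicates of a condition are thus drawn towards the same distribution of values, which bears on whether arrays overlap between groups. Probes were named through accession for 27235, symbol for 3581 and synonym for 565 of 55681 probes, and 24300 stayed unnamed.

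Contrasts were fitted over all 39 arrays in limma 3.58.1 (R 4.3.3), with Benjamini-Hochberg adjustment over 14825 genes per contrast. The study describes its replicates as independent samples. Array number limits precision. Scaling, background, filter, probe, threshold, slide, replicate block, array set and left-out arrays were varied, and the fit was tested on simulated data. Replicate numbers did not pair treated with untreated samples (correlation of same-numbered deviations −0.19 to 0.22). They did for MII against GV and 8-cell against 4-cell, where every pair was above 0.14. Genes were named for a known role, as paralogs or their partners, as the 3 largest called changes each way per contrast with arrays that do not overlap, or for failing the filter. Rps12, Rps16, Rpl31, Rpl34, Rpl36, Rpl14, Rps15a and Rpl9 were named after their values were seen. Members and lists were chosen with earlier results of these data known. Some genes that the rule names are not reported here.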

Additional observations from a re-analysis of the deposited data

Results flagged for a closer look

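For 3 results a test of the difference between stages found that members answered an inhibitor differently. The T247 effect differed between the 2-cell and the 1-cell stage for 63 members and the MGCD0103 effect for 68, all in the direction of lower at the 2-cell stage. The T247 effect differed between the 4-cell and the 2-cell stage for 40 members, all higher at the 4-cell stage. Rps15 is an example, with differences of −2.23 ± 0.24 and −2.69 ± 0.24 for the first comparisons and 1.92 ± 0.24 for the last. Without replicate 2 of the untreated 2-cell embryos the counts were 55, 63 and 28, and without replicate 1 they were 68, 72 and 47.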

How the results depend on the processing

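With no fold required, 20 (T247) and 14 (MGCD0103) members were called in 1-cell embryos and 40 in 4-cell embryos. Of all genes, 12.6% were higher and 8.71% lower with T247 in 1-cell embryos, and 11.2% and 3.15% with MGCD0103. In 4-cell embryos 23.5% were higher and 24.8% lower. Between the inhibitors 2 and 36 members were called in 1-cell and 2-cell embryos. There 0.209% and 28.7% of all genes were higher and 0.31% and 8.91% lower. The T247 effect at 4-cell against 2-cell gave 65 members, where 31.7% of all genes were higher and 12.4% lower. For 1-cell against MII, 8-cell against 4-cell, morula against 8-cell and blastocyst against morula the counts were 54, 55, 49 and 2. In that order 31.2%, 25.4%, 53.5% and 35.5% of all genes were higher and 17.1%, 17.3%, 12.1% and 18.4% lower. Under quantile normalization, 35 members were called with T247 in 2-cell embryos, 0 with MGCD0103 in 1-cell embryos, 2 between the inhibitors in 2-cell embryos and 20 for the T247 effect at 4-cell against 2-cell. Under 75th percentile scaling, 1 and 0 were called at the 1-cell stage with T247 and MGCD0103, 2 with T247 at the 4-cell stage, 21 for its 4-cell against 2-cell effect and 1 for blastocyst against morula. Normexp correction gave 0 for MGCD0103 at the 1-cell stage and 0 between the inhibitors at the 2-cell stage. Without a detection filter 1 and 2 were called for 8-cell against 4-cell and morula against 8-cell. With the mean of the probes the counts were 0 for MGCD0103 at the 1-cell stage, 2 for 8-cell against 4-cell, 2 for morula against 8-cell and 1 for blastocyst against morula. The cause of these changes was not tested. For the settings after the first, no share of all genes is given beside the counts.

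The median member relative to all genes turned from −0.16 to 0.13, 0.0323 and 0.0532 for morula against 8-cell under quantile normalization, normexp and no filter, and from −0.24 to 0.0123 for blastocyst against morula under quantile normalization. Rpl37 gave 0.0534 at MII against GV under 75th percentile scaling, and Rpl22 gave −0.97 and 1.22 with the mean of its probes at 2-cell against 1-cell and blastocyst against morula.

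Leaving out 1 array at a time gave 0 to 1 for MGCD0103 at the 1-cell stage, 1 to 2 for morula against 8-cell and 0 to 1 for blastocyst against morula. The replicate block gave the same count of called members in every comparison (54 with T247 and 60 with MGCD0103 in 2-cell embryos), and so did slide as a random block. Neither block can show a slide effect between treated and untreated embryos, because these share no slide and replicate numbers did not pair them. Each sample correlated best with its own number in 6 of 7 stage steps. Replicate n of each untreated stage lay on slide n, so replicate number and slide cannot be told apart there.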
